A study of Mus musculus with 12 samples.

Results

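The livers taken 6 hr after lights on (Zeitgeber time 6, ZT6), in the middle of the light phase, are 2 of the 12 wild-type mouse livers whose poly(A) RNA was sequenced. They were compared with the 10 livers of the other 5 times (ZT2, ZT10, ZT14, ZT18 and ZT22), which come from 2 independent series with 1 liver sample per time in each. All 12 samples came from C57BL/6 adults (3 to 6 months, male in the study's methods) kept for at least 2 weeks in 12 hr of light and 12 hr of dark, and no group carried a mutation or a treatment. The groups differ by design in the time of day. A gene was counted when both of its ZT6 values lay above, or both lay below, all 10 other values. Of 20069 genes in the table, 10198 were expressed (at least 1 of 12 values above 8 reads per base pair of exon, rpbp), and of these 579 (5.68%) had both ZT6 values above the other 10 and 356 (3.49%) had both below.

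The liver clock is a feedback loop in which the activators CLOCK and BMAL1 (*Arntl*) drive the genes of their own repressors, the PER and CRY proteins and the nuclear receptors REV-ERBα and REV-ERBβ (*Nr1d1*, *Nr1d2*). The REV-ERB receptors hold back *Arntl* at ROR elements, and a further set of factors (DBP, TEF, HLF and their rival NFIL3) passes the rhythm on through D-boxes. Mice are active and feed mainly in the dark, so the middle of the light phase is a time of rest, when liver shifts towards the use of fatty acids.

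Short promoter stretches are shown for 7 genes of this loop and its targets that were low or high at ZT6 and held a motif, because the sites through which these factors are known to act can be read in them. They were cut from RefSeq promoter windows (GRCm38.p6, from 250 bases before to 50 after the start of the transcript), run 5′ to 3′ on the strand of the gene, and have the motif letters in capitals. The letters searched on both strands were ANTAGGTCA for the ROR element, TTATGTAA for the D-box and CACGTG for the E-box bound by CLOCK and BMAL1, and the E-box reads the same on the opposite strand. The first 4 stretches hold a ROR element and belong to genes that were below all other samples at ZT6, *Per3* holds D-boxes, and *Gm129* and *Tef* hold E-boxes.
Arntl: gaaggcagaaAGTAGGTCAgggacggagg
Nfil3: cgctcggaacTGACCTACTaacacacatc
Slc45a3: actaagggtcAGTAGGTCAagttacaaac
Leo1: gctggagaaaACTAGGTCAcaaaagtaaa
Per3: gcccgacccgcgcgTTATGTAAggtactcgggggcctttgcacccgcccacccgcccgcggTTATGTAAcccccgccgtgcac
Gm129: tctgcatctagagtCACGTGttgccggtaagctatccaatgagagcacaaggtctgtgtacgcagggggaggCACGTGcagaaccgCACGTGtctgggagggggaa
Tef: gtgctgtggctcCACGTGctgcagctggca
The *Arntl* stretch lies at chr7:113207529-113207557, plus strand, after the start of the transcript, and its motif begins 28 bases from the first base. The *Nfil3* stretch spans the start (chr13:52981033-52981061, minus strand) and carries its motif on the opposite strand, as TGACCTACT. Those of *Slc45a3* (chr1:131970481-131970509, plus strand) and *Leo1* (chr9:75441449-75441477, plus strand) lie before the start. *Per3* carried 2 D-boxes within 83 bases (chr4:151044802-151044884, minus strand), *Gm129* carried 3 E-boxes within 106 bases (chr3:95882253-95882358, minus strand), and the *Tef* stretch held 1 E-box (chr15:81802534-81802563, plus strand), with another in a second promoter window of that gene. Among the 6877 expressed genes that could be matched to a window, 0.567% held the ROR letters, 0.756% the D-box and 12.3% the E-box. Windows were matched for 405 of the 579 genes above and 244 of the 356 genes below, less than 80% of each, so a comparison of motif shares between these groups is void and is not given. The ROR letters were also found in genes above all others (*Srxn1* and *Tbc1d22a*) and in genes that overlapped with other times (such as *Cyp3a11* and *Slc37a4*). The E-box letters were also found in *Cry1* and *Lonrf3*, which were below all others. A match in this window is a description and not evidence of binding.

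The deposited signal was scaled to the same number of sequences per sample. Its sum, between 1487469 and 1546116 rpbp per sample, therefore does not show that the libraries were alike. The 10 genes of highest signal in a sample held 28.5 and 27.6% of the sum at ZT6. Their share was 24.3 and 25.3% at ZT2, and 25.8 to 28.9% at the other times. The deposited values are a coverage and not read counts, so no counting interval is given. The 2 ZT6 livers were close to each other, with a median absolute log2 difference of 0.12, against 0.14 to 0.17 for the pairs of the other times. All 10 hepatocyte markers were detected in every sample, and their summed signal at ZT6 (189000 and 186000 rpbp) lay within that of the other samples (123000 to 203000), the lowest being at ZT2. Of these 10, *Trf* (transferrin) was called lower (log2 difference −0.44, adjusted p = 0.0371; 0.131 without the ZT2 samples). Summed lymphocyte markers, none of which was expressed by the rule, were at 16.6 and 20.1 rpbp at ZT6 against 8.32 to 16.4, and summed cholangiocyte markers, mostly *Spp1*, at 66.6 and 64.7 against 66.8 to 230. Of 10 endothelial markers 9 had a positive difference and limma called 0 (2 higher at an unadjusted p under 0.05, against 13.9% of all expressed genes), and *Stab2* was above all others (18.8 and 18.7 rpbp). Of 10 Kupffer cell markers 9 had a negative difference (median −0.16), and limma called 0 (0 also at an unadjusted p under 0.05). Kupffer cell, endothelial, stellate, erythroid, neutrophil and acinar sums overlapped with other times, and in the adipocyte list *Cfd* was detected at 7.72 and 24.8 rpbp while *Adipoq* was at most 0.4. Both ZT6 libraries also had a higher uniquely mapped share than the other 10 in the study's methods, and both ZT2 libraries a lower one than the rest. The part of these differences in the results was not tested. In whole liver, fewer cells of a type and less RNA per cell cannot be told apart.

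By the same rule, ZT2 livers had 1056 genes above and 977 below all others, more than ZT6, and the remaining times had between 129 and 360 above and between 157 and 426 below. The ZT2 libraries stood apart in this way, so counts are also given without both of them where this changes the picture. The plot of genes by time gives the counts.

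**Figure D1:**
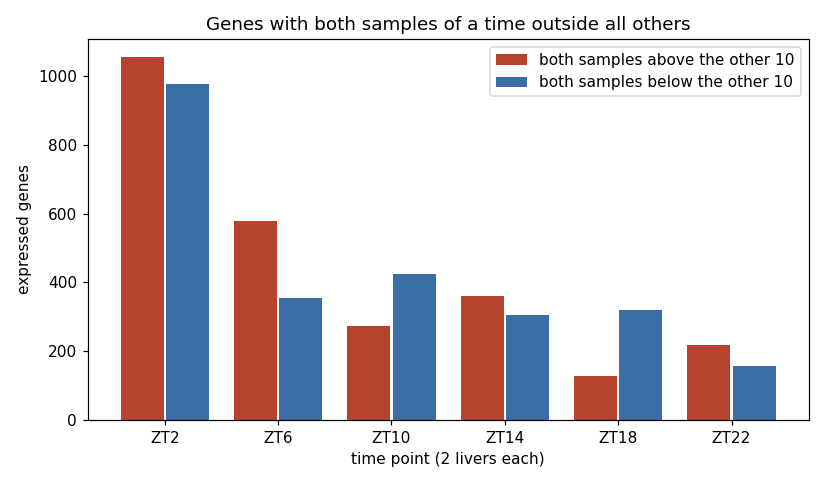
Number of expressed genes whose 2 samples of a time both lay above (red) or both below (blue) the other 10 samples, for each time point. ZT6 had 579 above and 356 below, ZT2 had 1056 and 977, and ZT10 had more genes below (426) than ZT6.

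In the core of the clock, *Nr1d1* and *Nr1d2* were at their highest and *Arntl* at its lowest at ZT6, with 4 of 5 activators called lower and 6 of 9 expressed repressors called higher (4 each without the ZT2 samples, when 1.61% of all expressed genes were called higher and 1.46% lower). *Nr1d1* (chromosome 11, 98629246 to 98636647, mm9) was at 142 and 108 rpbp in the livers of series 1 and series 2 at ZT6, against 3.8 to 46 rpbp (median 12.5) in the other 10. Both values lay far above the highest other value, which came from ZT2. Its mean was 7.11-fold that of the others, and its log2 difference was 3.23 ± 0.18 (SE), with an adjusted p = 8.09e-05 in limma, the linear model across all expressed genes on log2(rpbp + 1). This scale understates the change of genes near 0. *Nr1d1* shares bases with the oppositely oriented *Thra*, which was also above all 10, and the counting took no account of the strand, so reads of the overlap cannot be assigned to 1 of them. *Nr1d2* (chromosome 14, 19036568 to 19071641) was at 95.6 and 103 rpbp against 13.4 to 83.1 rpbp (median 29.7), a log2 difference of 1.69 ± 0.14 (adjusted p = 0.000614, limma), with the ZT10 livers next below.

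The mRNA of *Arntl* (chromosome 7, 120350979 to 120457636), the partner of CLOCK, was at 1.12 and 2.08 rpbp, against 2.84 to 29.4 rpbp (median 22.8) elsewhere. All 10 other values lay above both, the nearest being those of ZT10, and the log2 difference was −2.61 ± 0.20 (adjusted p = 0.00052, limma). A second entry of the table, bmal1b, gave nearly the same values and is not a separate gene. *Clock* fell to 17.8 and 16.2 rpbp against 17.4 to 39.8 rpbp (median 34.9), with a log2 difference of −0.78 ± 0.074 (adjusted p = 0.00121), but the values of both ZT10 livers lay between those of ZT6. *Npas2*, which encodes a protein that can stand in for CLOCK, was nearly absent at 0.36 and 0.04 rpbp, against 0 to 10.2 rpbp (median 3.56), and here the groups overlapped as well because of values near 0 at ZT10 and ZT14 (adjusted p = 0.00374). *Rora*, which encodes an activator at ROR elements, did not pass, at 20 and 20.2 rpbp against 13.2 to 24.8 rpbp (median 19.8). Among all expressed genes, limma called 395 higher (3.87%) and 310 lower (3.04%) at ZT6.

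The repressors differed among themselves. *Per3* was at 20.6 and 23.5 rpbp, against 0.28 to 21.8 rpbp (median 4.78), and only 1 sample of ZT10 overlapped with it (log2 difference 2.05 ± 0.11, adjusted p = 8.09e-05). *Gm129* (also called *Ciart*), a repressor of CLOCK and BMAL1, was at 13.5 and 14.4 rpbp against 0 to 17.6 rpbp (median 1.92), with a log2 difference of 2.03 (adjusted p = 0.00424). *Per2* and *Cry2* were called higher by smaller amounts (0.46 and 0.51, adjusted p = 0.0299 and 0.0284), and neither call was kept without the ZT2 samples (adjusted p = 0.818 and 0.131). *Per1* did not pass, at 5.92 and 4.68 rpbp inside a range of 0.68 to 13.8 rpbp. *Cry1* (chromosome 10, 84594447 to 84647799) went the other way, at 6.24 and 6.04 rpbp against 7.88 to 51 rpbp (median 30.7). Its log2 difference was −1.84 ± 0.14 (adjusted p = 0.000499), and ZT2 came next with 8.53 rpbp on average.

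All 3 PAR bZIP activators of the D-box were called higher at ZT6, and their rival was called lower. *Dbp* (chromosome 7, 52960458 to 52965525) was at 193 and 241 rpbp, against 1.48 to 100.1 rpbp (median 5.48) at the other times. Both values lay far above the highest other value, from ZT10, and the log2 difference of 4.38 ± 0.22 had an adjusted p = 8.09e-05. *Hlf* was at 49 and 50.3 rpbp, just above a range of 23.2 to 45.4 rpbp (log2 difference 0.46, adjusted p = 0.0137; 0.0908 without the ZT2 samples). *Tef* was at 128 and 142 rpbp, and 1 ZT10 value of 129 rpbp lay between them (log2 difference 1.43, adjusted p = 0.000316). *Nfil3* (chromosome 13, 53062578 to 53076442), whose product blocks the D-box, was at 20.6 and 17.1 rpbp and below all of 25.4 to 87.4 rpbp, median 52.2 (log2 difference −1.44 ± 0.12, adjusted p = 0.000545). The plots of clock genes by time show these opposite turns at ZT6.

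**Figure D2:**
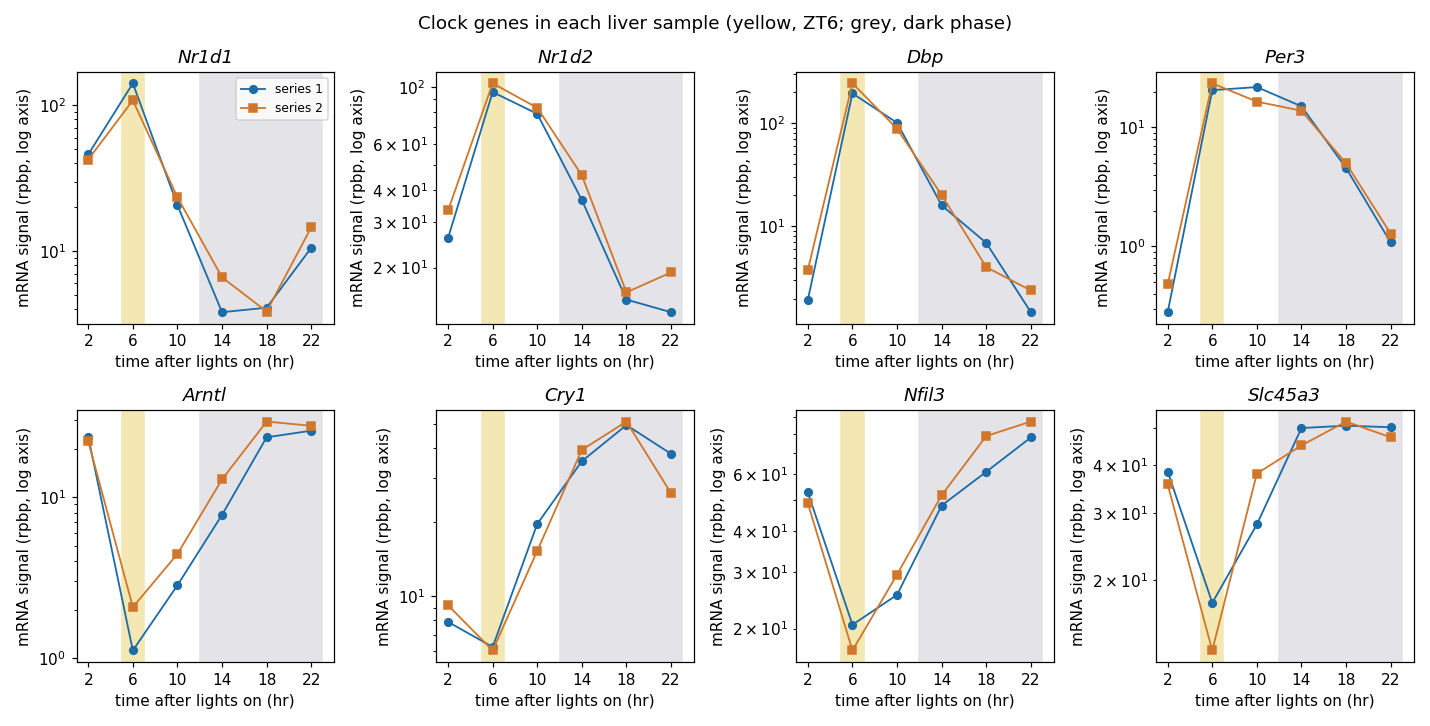
Signal (rpbp, log axis) of 8 genes in each liver against time after lights on (hr). They are clock genes and the clock output gene *Slc45a3*, with 1 line per series, ZT6 in yellow and the dark phase in grey. *Nr1d1*, *Nr1d2* and *Dbp* peaked at ZT6 in both series, *Per3* reached 20.6 and 23.5 rpbp there, and *Arntl*, *Cry1*, *Nfil3* and *Slc45a3* had their lowest values at ZT6 in both.

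The list of 15 output genes of the clock held genes of both directions. Limma called 4 higher and 5 lower, against 3.87% and 3.04% of all expressed genes. The counts were 2 and 4 without the ZT2 samples, against 1.61% and 1.46%. This list, like the others, was chosen with earlier results of these data known, so these counts are a description. *Slc45a3*, a solute carrier, was at 17.4 and 13.1 rpbp, well below 28 to 52.1 rpbp, median 46.3 (log2 difference −1.45 ± 0.13, adjusted p = 0.000769). *Leo1*, a subunit of the PAF1 complex of RNA polymerase II, was at 10.1 and 12.5 rpbp against 16.2 to 25.7 rpbp, median 23.4 (log2 difference −0.94, adjusted p = 0.00297). *Lonrf3* was also below all others, at 3.84 and 3.28 rpbp against 5.08 to 14.6 rpbp, median 10.3 (adjusted p = 0.00125). These 3 genes were thus separated from every other liver, as *Arntl* was. *Avpr1a*, the vasopressin receptor of liver, and *Tars* were called lower too but overlapped with other times, at 12.6 and 9.36 rpbp and 101 and 78.8 rpbp. On the high side, *Klf10* was above all others at 29.8 and 30.1 rpbp against 7.04 to 22.4 rpbp, median 17.1 (adjusted p = 0.0346). *Wee1*, the kinase that restrains entry into mitosis, was at 21.6 and 25.7 rpbp against 1.64 to 26.1 rpbp (median 10.4), with overlap (log2 difference 1.42, adjusted p = 0.000708). *Inmt* and *Upp2* were called higher as well (log2 differences 1.02 and 1.36) while their ranges at the other times reached higher than at ZT6. *Klf10*, *Upp2* and *Tars* were not called without the ZT2 samples (adjusted p = 0.122, 0.0546 and 0.0744). Of 11 enzymes that modify clock proteins, *Usp2* was called higher (log2 difference 1.27, adjusted p = 0.00801; 0.0816 without the ZT2 samples), and *Csnk1d* was below all others by a small margin without passing the test (43.8 and 43.6 rpbp against 44.9 to 53.7 rpbp, adjusted p = 0.203).

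As a share of their lists, clock repressors (6 of 9) and D-box factors (3 of 4) were most often called higher at ZT6. By count, the list of fatty acid use held the most genes called higher of the gene lists examined. PPARα is the fasting-responsive nuclear receptor that turns on peroxisomal, microsomal and mitochondrial fatty acid oxidation, and of 33 expressed genes of this list 8 were above all 10 others and 14 were called higher, against 1 below and called lower. Of all expressed genes 5.68% were above all others, 3.87% called higher, 3.49% below and 3.04% called lower. The median log2 difference of the list was 0.48, and that of all expressed genes was 0.02. *Ppara* itself (chromosome 15, 85565413 to 85633249) was at 201 and 229 rpbp against 72.6 to 204 rpbp (median 129), with 1 ZT10 value between the ZT6 values (log2 difference 0.80 ± 0.10, adjusted p = 0.00424).

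The microsomal ω-hydroxylases, which begin the breakdown of fatty acids from the methyl end, included the largest difference of the list. *Cyp4a14* (chromosome 4, 115158805 to 115168747) was at 1430.2 and 1322 rpbp at ZT6 and ranged over 1.64 to 1058 rpbp (median 41.8) elsewhere. Its values were near 0 at ZT2, the nearest to ZT6 came from 1 ZT10 liver, and the log2 difference was 4.97 ± 0.72 (adjusted p = 0.00735). *Cyp4a10* (chromosome 4, 115190869 to 115206254) was at 996 and 902 rpbp against 9.08 to 759 rpbp (median 133), with a log2 difference of 2.91 ± 0.29 (adjusted p = 0.00151). *Cyp4a31* followed it across the 12 samples (r = 0.9985 on log2(rpbp + 1), a description), at 897 and 834 rpbp. The sequences of these neighbouring genes are much alike, so the split of signal between them is uncertain.

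In the peroxisome, *Ehhadh*, the bifunctional enzyme of β-oxidation, was above all others at 767 and 742 rpbp against 170.1 to 703 rpbp, median 347 (log2 difference 1.19 ± 0.17, adjusted p = 0.00721). The thiolase *Acaa1b* was called higher but overlapped with other times (2524 and 2494 rpbp, adjusted p = 0.0272). The acyl-CoA thioesterases *Acot1*, *Acot2*, *Acot3* and *Acot4* were called higher (log2 differences 1.16, 1.56, 3.17 and 1.35), all with overlap, and they are also near copies of each other. *Fabp1*, the fatty acid binding protein of liver, was at 22354 and 23561 rpbp against 10435 to 22927 rpbp (adjusted p = 0.0486). *Vnn1*, a pantetheinase, was above all others at 184 and 134 rpbp against 3.28 to 118 rpbp (median 16.1) but did not pass the test (adjusted p = 0.0516). Without the ZT2 samples *Acaa1b*, *Fabp1* and the 4 thioesterases were not called (adjusted p from 0.122 to 0.279), while *Ehhadh* was.

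In mitochondria and the lipid droplet the differences were smaller. *Hadha* and *Hadhb*, the subunits of the trifunctional protein of β-oxidation, were above all others by narrow margins, at 194 and 199.8 rpbp against 129.9 to 191 rpbp and at 257 and 253 rpbp against 170.2 to 253 rpbp, and neither passed the test (adjusted p = 0.116 and 0.123). *Acadl*, the long-chain acyl-CoA dehydrogenase, was called higher (log2 difference 0.44, adjusted p = 0.0271; 0.128 without the ZT2 samples). *Pnpla2*, the triglyceride lipase ATGL, was above all others at 70 and 78.5 rpbp against 45.2 to 69.8 rpbp, median 50.8 (log2 difference 0.48 ± 0.091, adjusted p = 0.0183). The table entry 2310076L09Rik, now *Plin5*, encodes a coat protein of lipid droplets and went the opposite way, at 26.9 and 26.9 rpbp against 37.8 to 80.5 rpbp, median 52.1 (log2 difference −0.88 ± 0.16, adjusted p = 0.0171). *Cpt1a*, *Angptl4* and *Pdk4* are targets of PPARα that did not pass, with adjusted p between 0.206 and 0.817. Without the ZT2 samples, 6 genes of the list were called higher, against 1.61% of all expressed genes, and 8 were above the remaining 8 samples, against 7.33%.

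In a list of 19 genes of gluconeogenesis and the fasting hormone response, 3 were below all others at ZT6, against 3.49% of all expressed genes. *G6pc* (chromosome 11, 101228875 to 101239217), which releases glucose from glucose 6-phosphate, was at 280.5 and 259.8 rpbp and below all of 386 to 773 rpbp, median 520.4 (log2 difference −0.97 ± 0.18, adjusted p = 0.0186). *Pck1*, which commits oxaloacetate to gluconeogenesis, was at 478 and 407 rpbp against 581 to 1184 rpbp (median 709) and narrowly missed the threshold (log2 difference −0.73, adjusted p = 0.0589). *Sik1* (listed as Snf1lk), a kinase that restrains the glucagon response, was below all others as well at 5.4 and 9.16 rpbp (adjusted p = 0.0265). None of the list was above all others, and limma called 2 lower and 0 higher, against 3.04% and 3.87%. At an unadjusted p under 0.05 the counts were 3 lower and 2 higher, near the 10.8% lower and 13.9% higher of all expressed genes. The median log2 difference of the list was 0.02.

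Of 21 genes of fatty acid synthesis and glucose use, 3 were above all others and 19 had a positive difference, with a median of 0.74. Limma called 3 higher and 1 lower. Of all expressed genes 5.68% were above all others, 3.87% called higher and 3.04% lower. *Srebf1* (chromosome 11, 60012591 to 60036083), the transcription factor of lipogenesis, was at 413 and 335 rpbp against 106 to 333 rpbp (median 237), and its lower ZT6 value exceeded the highest other value by less than 2 rpbp (log2 difference 0.80 ± 0.17, adjusted p = 0.0286). *Slc2a2*, the glucose transporter of hepatocytes, was at 481 and 441 rpbp against 104 to 438 rpbp, median 307 (log2 difference 0.83, adjusted p = 0.0262). *Fads1*, a fatty acid desaturase, was above all others too, without passing (adjusted p = 0.0693). *Scd1*, the stearoyl-CoA desaturase, was called higher at 27154 and 18548 rpbp, although other times reached up to 23462 rpbp (log2 difference 2.46, adjusted p = 0.00797). *Elovl3* was the exception, called lower at 165 and 112 rpbp against 40.3 to 1439.9 rpbp, median 888 (adjusted p = 0.0486). *Fasn*, *Acaca*, *Acly* and *Thrsp* did not pass (adjusted p between 0.0711 and 0.201), and without the ZT2 samples limma called 0 genes of this list (6 higher and 2 lower at an unadjusted p under 0.05, against 11.5% and 8.41% of all expressed genes). Of 24 cholesterol genes 20 had a positive difference, but 0 were called by limma (9 higher and 2 lower at an unadjusted p under 0.05, against 13.9% higher and 10.8% lower of all expressed genes), and *Acat2* was above all others (119.5 and 102 rpbp).

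**Figure D3:**
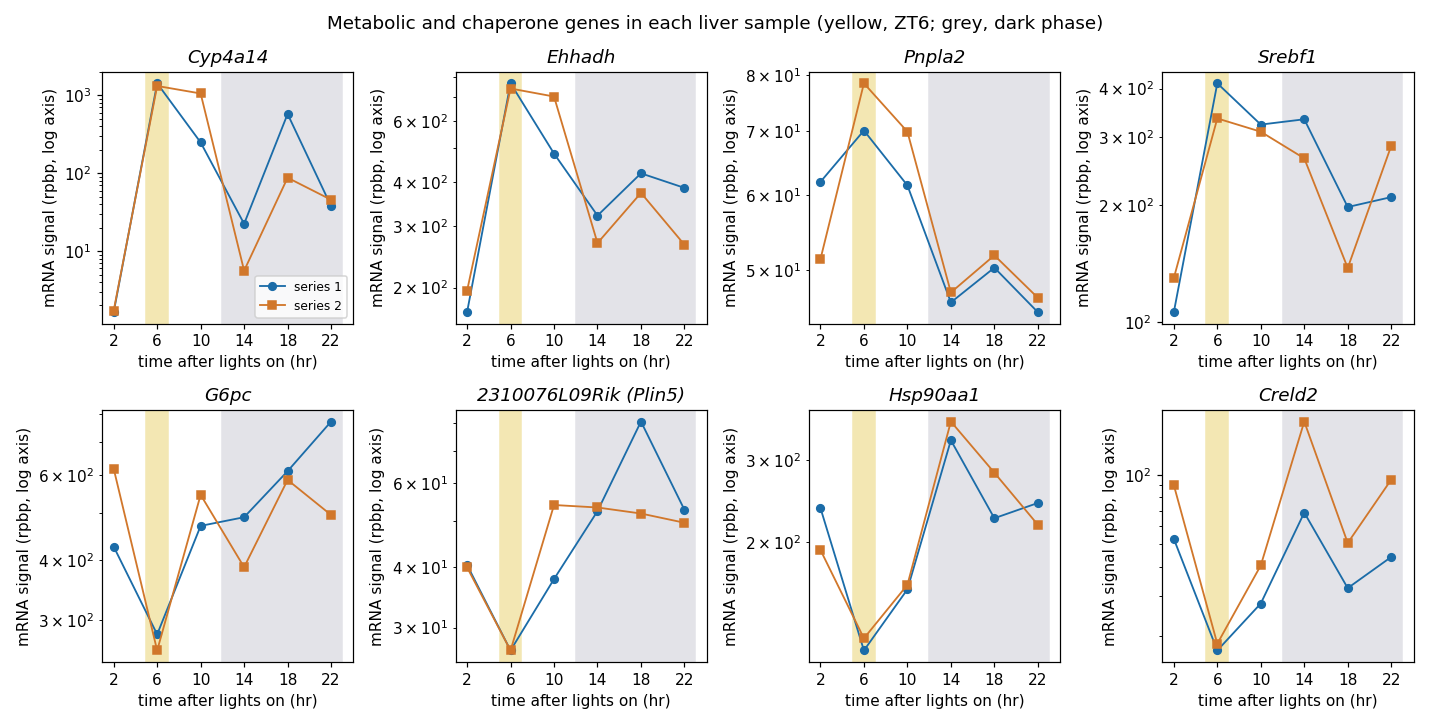
Signal (rpbp, log axis) of 8 metabolic and chaperone genes in each liver against time after lights on (hr), with 1 line per series, ZT6 in yellow and the dark phase in grey. *Cyp4a14* rose from under 2 rpbp at ZT2 to 1430.2 and 1322 rpbp at ZT6, and *G6pc*, *Plin5*, *Hsp90aa1* and *Creld2* had their lowest values of the day at ZT6 in both series.

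Of 19 expressed heat shock chaperones and their partners, 5 were below all 10 others at ZT6 and 0 above, 4 were called lower, and 16 had a negative difference. Of all expressed genes 3.49% were below all others and 3.04% were called lower. The median of the list was −0.22, and 3 of its genes were called lower without the ZT2 samples, against 1.46% of all expressed genes. *Hsp90aa1*, the inducible HSP90, was at 117 and 124 rpbp against 158 to 364 rpbp, median 231 (log2 difference −0.95 ± 0.11, adjusted p = 0.00297). Its co-chaperones *Stip1*, *Ahsa1* and *Fkbp4* were also below all others and called lower, with log2 differences of −0.51, −0.35 and −0.33, though *Ahsa1* was not called without the ZT2 samples (adjusted p = 0.106). *Chordc1* was below all others without passing the test, and *Hspa8* and *Hspa1b* overlapped with other times (adjusted p = 0.124 and 0.71).

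The unfolded protein response raises chaperones when proteins in the endoplasmic reticulum are misfolded, and 6 of its 23 genes were below all others, with 4 called lower, 1 called higher and a median log2 difference of −0.37. Of all expressed genes 3.49% were below all others, 3.04% called lower and 3.87% higher. *Creld2*, a resident of that compartment, was at 17.4 and 18.6 rpbp against 27.7 to 170 rpbp, median 51.7 (log2 difference −1.64 ± 0.38, adjusted p = 0.0378). *Manf* (listed as Armet) was at 44.4 and 45.9 rpbp against 50.5 to 152 rpbp, median 92.7 (log2 difference −0.97, adjusted p = 0.0306). *Dnajc3* (listed as Dnajc3a) and *Dnajb11* were called lower, the second with overlap (−0.53 and −0.66). *Hspa5*, the main chaperone there, was at 649 and 679.7 rpbp, below 692 to 2069.9 rpbp (median 1141), and did not pass (adjusted p = 0.0549), nor did *Hyou1* and *Pdia3* (adjusted p = 0.0862 and 0.133). *Trib3*, a pseudokinase induced in the same response, was the exception and rose to 12.2 and 10.8 rpbp against 0.8 to 5.04 rpbp, median 3.06 (log2 difference 1.76 ± 0.31, adjusted p = 0.0158). It passed the minimum of 8 rpbp only through its ZT6 values, so its call as higher is no more than a description. Without the ZT2 samples, 6 of these genes were below the remaining 8 samples (4.21% of all expressed genes were), and limma called 0 lower (9 at an unadjusted p under 0.05, against 8.41% of all expressed genes).

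A list of 15 genes held the glucocorticoid receptor *Nr3c1* and its targets, with a median log2 difference of −0.39. Limma called 5 lower and 0 higher, against 3.04% and 3.87% of all expressed genes. At an unadjusted p under 0.05 it gave 7 lower and 0 higher, against 10.8% and 13.9% of all expressed genes. Without the ZT2 samples 3 were called lower, and *Errfi1* and *Zbtb16* were not (adjusted p = 0.0958 and 0.0541). Their log2 differences were −1.06 and −1.59 without these samples, against −1.13 and −1.43 with them. Of 23 acute phase genes, which liver makes under inflammation, 6 were called lower and 1 higher, against 3.04% and 3.87% of all expressed genes, with a median of −0.76. With the ZT2 samples left out, limma called 1 lower (*Il6ra*) and 0 higher (6 lower and 1 higher at an unadjusted p under 0.05, against 8.41% and 11.5% of all expressed genes). Among the first, *Tsc22d3* (GILZ) was called lower at 66.8 and 54 rpbp against 62.1 to 217 rpbp, median 138 (log2 difference −1.08, adjusted p = 0.00381), with overlap at ZT2. *Sgk1* (listed as Sgk) and *Zbtb16* were below all others, at 10.6 and 10.7 rpbp against 11 to 18.4 rpbp and at 2.16 and 1.08 rpbp against 2.76 to 18.4 rpbp. *Fkbp5* and *Errfi1* were also called lower, with overlap, while *Tat* was at 1153 and 872 rpbp inside its range (adjusted p = 0.44). Of the acute phase genes, *Saa4*, a serum amyloid protein, was below all others at 343 and 370.4 rpbp against 501 to 1617 rpbp, median 879 (log2 difference −1.25 ± 0.22, adjusted p = 0.0158). The receptor *Il1r1* (13.4 and 12 rpbp against 14.9 to 51.2 rpbp) and the metalloreductase *Steap4* (118 and 138 rpbp against 149.9 to 513 rpbp) were below all others and called lower. The fibrinogen chains *Fga* and *Fgg* and the receptor *Il6ra* were called lower with overlap, and *Hamp2*, a hepcidin gene, was called higher (log2 difference 1.92). *Saa1* was at 57.8 and 149.7 rpbp and ranged up to 14312 rpbp elsewhere, and its log2 difference of −2.49 did not pass (adjusted p = 0.195). The serum amyloid genes resemble each other, which makes their separate levels uncertain.

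Members of other groups were separated as well. Of 13 early response genes, 6 had a positive and 7 a negative difference, with a median of −0.08. Of these, 3 were above all others and 2 were called higher, against 5.68% and 3.87% of all expressed genes. *Gadd45a*, *Junb* and *Zfp36* were above all others, at 20.4 and 31.5 rpbp, 40.5 and 49.8 rpbp and 165 and 161 rpbp, and the first 2 were called (log2 differences 1.39 and 1.41, adjusted p = 0.00792 and 0.0263). Of 23 ribosome biogenesis genes, 4 were below all others and 1 was called lower, against 3.49% and 3.04% of all expressed genes. That gene was *Nolc1* (log2 difference −0.63, adjusted p = 0.0317). *Igf1*, the growth factor secreted by liver, was below all others at 172 and 188 rpbp against 226 to 329 rpbp, median 272 (log2 difference −0.59, adjusted p = 0.0276), and the kinase *Mtor* (listed as Frap1) was above all others at 18.4 and 18.2 rpbp against 11.3 to 14.9 rpbp, median 14.2 (adjusted p = 0.019). *Klb*, the co-receptor for FGF21 and FGF15, was above all others at 38.1 and 39.2 rpbp, and the hydroxylase *Cyp7b1* was called lower with overlap (log2 difference −1.98), while *Cyp7a1*, the rate-limiting enzyme of bile acid synthesis, did not pass (adjusted p = 0.895). Without the ZT2 samples *Gadd45a* and *Mtor* were called, and *Junb*, *Nolc1*, *Igf1*, *Klb* and *Cyp7b1* were not (adjusted p from 0.0524 to 0.129).

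Among 40 genes of drug metabolism, 5 were called higher and 3 lower, against 3.87% and 3.04% of all expressed genes, and without the ZT2 samples limma called 0 higher and 2 lower (6 and 7 at an unadjusted p under 0.05, against 11.5% and 8.41% of all expressed genes). *Gstm1*, a glutathione transferase, and *Abcc2*, the bile exporter MRP2, were above all others, at 2849 and 2965 rpbp against 1394 to 2642 rpbp and at 372 and 338 rpbp against 179 to 297 rpbp (adjusted p = 0.0137 and 0.0303). The exporter *Abcg2* was below all others at 85.7 and 84.8 rpbp against 100.5 to 126 rpbp (adjusted p = 0.0265). *Nr1i3* (CAR), the receptor that senses drugs, was called higher with overlap at 242 and 244 rpbp (log2 difference 0.66, adjusted p = 0.00183), as were *Cyp2b9* and *Ugt1a1*. In the interferon, autophagy, cold-inducible and cell cycle lists, limma called 0 genes, and 1 interferon gene was called higher without the ZT2 samples. At an unadjusted p under 0.05 it gave 1 higher and 1 lower of 17 interferon genes, 4 and 1 of 29 autophagy genes, 0 and 0 of 2 cold-inducible genes, and 2 and 1 of 10 cell cycle genes, against 13.9% higher and 10.8% lower of all expressed genes. The autophagy gene *Gabarapl1* and the cell cycle gene *Ccng1* were above all others (528 and 583 rpbp, and 54 and 57.2 rpbp). The plot of the gene lists sets these groups side by side.

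**Figure D4:**
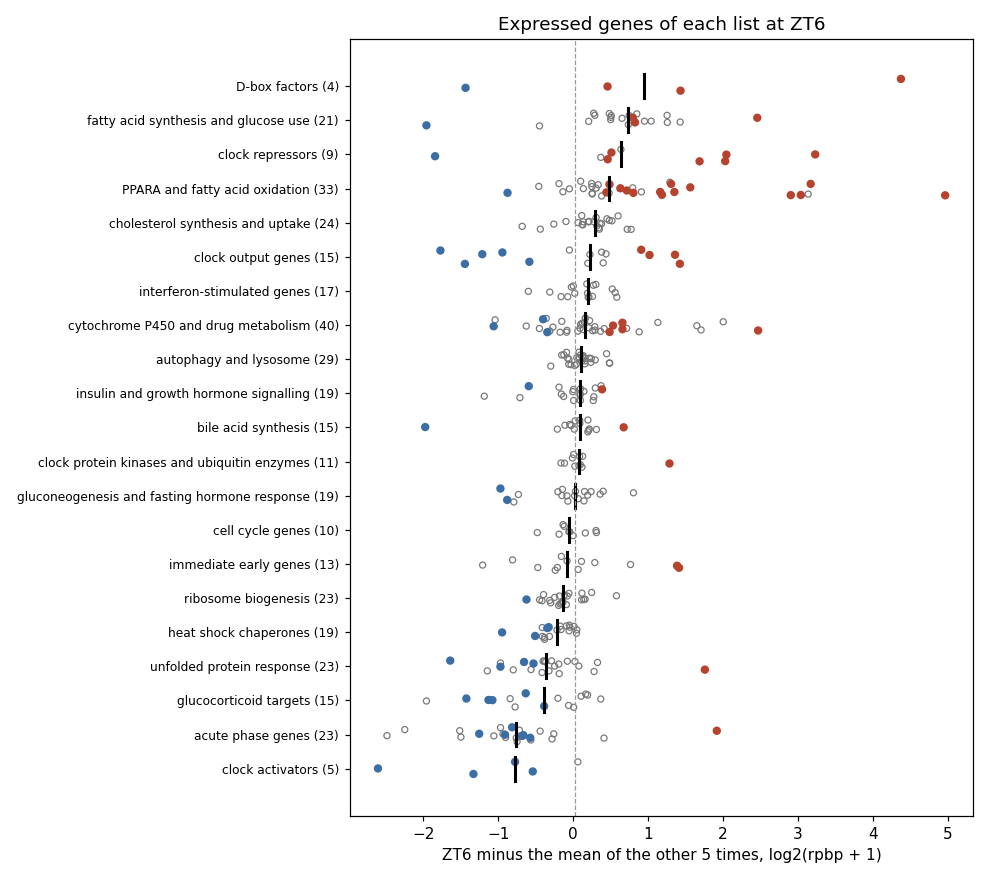
Log2 difference of ZT6 from the mean of the other 5 times on log2(rpbp + 1) for each expressed gene (points) of the gene lists with at least 4 expressed members (number in brackets). Filled points passed limma (red higher, blue lower), bars are list medians and the dashed line is the median of all expressed genes. The median was 0.48 for the fatty acid oxidation list and −0.76 for the acute phase list, against 0.02 over all expressed genes.

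Outside the lists, *Rgs16* (chromosome 1, 155587479 to 155592598), a regulator of G protein signalling, was at 105 and 132 rpbp against 0 to 54.4 rpbp (median 5.08). Its mean was 9.9-fold that of the others, the largest ratio among the 579 genes (log2 difference 4.42 ± 0.52, adjusted p = 0.00297). *Pltp*, which transfers phospholipids between lipoproteins, was at 136 and 133 rpbp against 17.2 to 93.8 rpbp, median 29.6 (log2 difference 2.01, adjusted p = 0.00419), and overlaps the oppositely oriented *Ctsa*, which was also above all others. *Abcd2*, a peroxisomal transporter of very long fatty acids, was at 32 and 40.3 rpbp against 1 to 25.6 rpbp. *Serpinb1a*, a protease inhibitor, was at 18.9 and 27.2 rpbp against 0.76 to 12.5 rpbp, and *Serpina7*, the thyroxine-binding globulin, at 164 and 149 rpbp against 19.7 to 105 rpbp. 1110028A07Rik, now *Fitm1*, a gene of lipid droplet formation, was at 162 and 161 rpbp against 9.04 to 149 rpbp (median 48.7). The unnamed transcript AK135671 was at 59.4 and 55.7 rpbp against 0.12 to 51.9 rpbp (median 2.34). Limma called these 5 higher, with adjusted p from 0.016 to 0.0375, and none of the 5 was called without the ZT2 samples (adjusted p from 0.0616 to 0.103).

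Among genes with a mean of at least 8 rpbp, those farthest from any other sample on the high side, besides *Nr1d1*, *Dbp* and *Rgs16*, included genes with moderate differences. *Rnf186*, a ubiquitin ligase, was at 34.1 and 34.9 rpbp with a highest other value of 19 rpbp. A730008H23Rik was at 119.6 and 107 rpbp with 60.9, *Sgk2*, a kinase related to *Sgk1*, at 64.7 and 62.8 rpbp with 39.1, and *Phf17* (now *Jade1*), a member of a histone acetyltransferase complex, at 42.3 and 40.6 rpbp with 26. The entry 6430706D22Rik overlaps A730008H23Rik in the annotation and had almost the same profile. *Phf17* had nearly the same value in both series at ZT6, and its log2 difference was 0.90 ± 0.076 (adjusted p = 0.000614; 0.00353 without the ZT2 samples).

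On the low side, *Scara5* (chromosome 14, 66285240 to 66383663), a scavenger receptor that takes up ferritin, was almost absent at ZT6, at 0.52 and 0.56 rpbp, against 5.04 to 47.2 rpbp, median 13.1 (log2 difference −3.36 ± 0.43, adjusted p = 0.00389). *Serpina4-ps1* (chromosome 12, 105318859 to 105324934), a serpin pseudogene, was at 13.1 and 14.8 rpbp against 56 to 412 rpbp, median 125 (log2 difference −3.12 ± 0.21, adjusted p = 0.000235). *Atp6v0c* (chromosome 17, 24300833 to 24306647), the membrane ring subunit of the proton pump of lysosomes, was at 6.8 and 5.64 rpbp against 9.6 to 70.2 rpbp (median 59.6), with the lowest other value at ZT2 (log2 difference −2.62 ± 0.41, adjusted p = 0.0101). *Chka* (chromosome 19, 3851773 to 3894369), the choline kinase that begins phosphatidylcholine synthesis, was at 4.4 and 4.12 rpbp against 4.88 to 38.1 rpbp, median 20.3 (log2 difference −1.90 ± 0.11, adjusted p = 0.000123), with ZT10 close to ZT6. *Prhoxnb* (now *Urad*), an enzyme of uric acid breakdown, was at 50 and 33.3 rpbp, and the transcript AK080367 at 5.4 and 6.4 rpbp, both called lower (adjusted p = 0.0243 and 0.0469), though not without the ZT2 samples (adjusted p = 0.0649 and 0.107).

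Others were separated by wide gaps. *Trp53inp2*, which acts in autophagy, was at 123 and 110.2 rpbp against a lowest other value of 213 rpbp. *Rnf144b*, a ubiquitin ligase, was at 23.6 and 23.2 rpbp against 37.3, and *Ablim3*, an actin-binding protein, at 8.2 and 7.64 rpbp against 12.9. All 3 were called lower (log2 differences −1.19, −1.15 and −0.93). In each case the ZT6 livers of both series gave close values. The plot of ZT6 against the other times shows where these genes lie among all expressed genes.

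**Figure D5:**
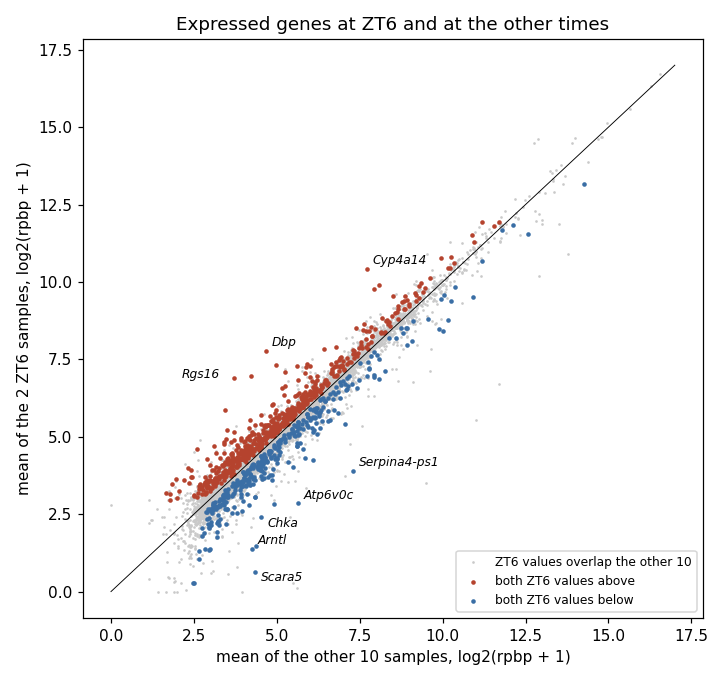
Mean of the 2 ZT6 livers against the mean of the other 10, both as log2(rpbp + 1), for 10198 expressed genes, with the 579 genes above all others in red, the 356 below in blue and the line of equal values in black. *Dbp*, *Rgs16* and *Cyp4a14* stand above the cloud, and *Scara5*, *Arntl* and *Serpina4-ps1* stand below it.

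Across all genes the separation was usually small. The median ratio of the ZT6 mean to the mean of the others was 1.338 for the genes above (1.057 to 9.896) and 0.721 for those below (0.028 to 0.924), and 58 and 61 genes were beyond 2 times. On log2(rpbp + 1), 201 of the genes above and 137 of those below cleared the nearest other value by less than 0.05. *Vegfa*, at 100.8 and 109.6 rpbp with a highest other value of 100.7, was just inside the rule and AK172678, at 12.6 and 13.3 rpbp with a highest other value of 12.6, just outside it. On the low side *Ccpg1* (50.2 and 53.28 rpbp against 53.32) was just inside and *Slc16a6* (3.52 and 5.44 against 5.44) just outside. Limma, which used the same 12 values and is therefore not independent of the rule, called 258 of the 579 higher and 168 of the 356 lower. With either ZT6 liver left out, limma called 31 or 33 genes higher and 42 or 48 lower among all expressed genes, so most calls rest on having both. The balance of the directions depended on the scaling, with 478 above and 483 below after division by size factors from the median of ratios.

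The level at ZT6 was also set against the times on either side of it. Against the mean of ZT2 and ZT10, limma called 274 genes higher (2.69%) and 166 lower (1.63%). With 1 ZT2 sample left out the counts were 76 or 82 higher and 48 or 62 lower, and without both, against ZT10 alone, 6 and 2. For genes outside all 10 others these differences use values that the rule used, and they are given as a description. For *Dbp* the log2 difference from its neighbours was 3.52, for *Nr1d1* 1.96, for *Phf17* 0.91, for *Pnpla2* 0.28, for *Arntl* −2.03 and for *Serpina4-ps1* −3.91. ZT10 was the time with the next most extreme mean for 49.4% of the genes above and 46.9% of those below. The shares were 15.5% and 23.6% for ZT18, and 14% and 12.6% for ZT2. Among genes whose ZT6 mean was the most extreme but whose values overlapped with other times, ZT10 came next for 40.6% and 41.8%. For these genes ZT18 came next for 16.6% and 26.1%, and ZT2 for 17.6% and 11.1%. An F24, the share of the variance of the 12 values taken up by a 24 hr cycle, above 0.45 was found in 37.1% of the genes above and 30.9% of those below, and in 30.6% of all expressed genes.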

How the data were processed

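The authors sequenced poly(A) RNA (TruSeq kit, 4 micrograms of total RNA per liver) and mapped the sequences with TopHat to mm9 after CASAVA 1.8, per the submitters' processing notes, keeping sequences with a unique place. The deposited signal is mean exon coverage per gene, pooled over isoforms and strands, which the authors scaled to 10000000 sequences per sample, and it was multiplied by 4 here. The columns headed ZT20 were taken as ZT22. The authors' 3 columns on rhythms (F24, phase and its p) were not used.

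Expressed genes (highest value over 8 rpbp) were tested on log2(rpbp + 1) with limma 3.58.1 (R 4.3.3), with 6 time-point means and contrasts of ZT6 against the other 5 times and against ZT2 and ZT10. P-values were adjusted by Benjamini-Hochberg over 10198 genes, with a threshold of 0.05. With n = 2 samples per time they measure only the spread between these samples, and whether each is a single mouse is not given in the sources used here. Python 3.11.15 and pandas 2.3.3 were used for counts. Gene positions are from GENCODE vM1 (mm9), promoters from RefSeq (GRCm38.p6).

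Named genes were the 12 largest differences in each direction among separated genes called by limma with a mean of at least 8 rpbp, the 8 widest gaps, and list genes that were separated or called, with up to 4 other members per list. Some genes that this rule names are not reported here. Members and lists were chosen with earlier results of these data known. The replicate numbers mark independent series. The main fit has no block. The alternatives were a pseudocount of 0.1, minimums of 16 rpbp or none, size factors, a replicate block, 2 groups, an intensity trend and each sample left out. Fits without both ZT2 samples were added after the data were seen.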

Additional observations from a re-analysis of the deposited data

How the results depend on the processing

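Calls depended on the number of samples, and since named genes were mostly chosen as separated or called, their direction under the alternatives is not read as a sign of stability. The 395 higher and 310 lower genes became 244 and 189 with no minimum (many more genes tested), 12 and 5 with 2 groups (where the spread holds the differences between the other times), and 164 and 149 without both ZT2 samples. Against the neighbours, 274 and 166 became 112 and 69 with no minimum, and 6 and 2 without both ZT2 samples (ZT6 against ZT10 alone). With 1 sample left out, the counts ranged from 31 to 511 higher and 42 to 366 lower, and against the neighbours from 14 to 341 and 10 to 218. The lowest of these were without a ZT6 sample (31 and 42 without that of series 1, 33 and 48 without that of series 2), when the lone ZT6 sample was assumed to vary like the other groups. Without the ZT2 sample of series 1, 203 were lower, and against the neighbours leaving out a ZT2 sample gave 76 or 82 higher and 48 or 62 lower, and leaving out the ZT10 sample of series 1 gave 106 and 74. The genes outside all others ranged from 603 to 1279 above and 362 to 1048 below, the highest being without a ZT6 sample, and were 929 and 550 without the ZT10 sample of series 2. With the replicate block, 335 and 266 genes were called, 568 of them shared with the 705 calls without it, and 97 of the 106 called named genes kept the call. Those that did not included *Fga*, *Cyp7b1*, *Serpina7*, *Errfi1*, *Acot1*, AK080367, *Fabp1* and *Elovl3* (adjusted p from 0.0505 to 0.0687), and *Hspa5* and *Hyou1* were among those called with the block alone (0.0201 and 0.0203). Deviations of same-numbered samples correlated between −0.153 and 0.206 over 15 pairs of time points (2 pairs above 0.1). What samples of a series share besides a number is not stated in the sources used here and was not tested. With no minimum, 63 of the 106 called named genes kept the call, and with 2 groups 5 did. Of these 106, 105 kept it with size factors, 104 with a pseudocount of 0.1, 55 without both ZT2 samples, and 24 under every single sample left out. *Dbp*, *Nr1d1*, *Per3*, *Arntl*, *Nfil3*, *Cry1*, *Chka* and *Serpina4-ps1* were among the 24. The signal holds no read counts, and 2 livers per time limit each call.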

Other observations

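A few genes differed widely between the ZT6 livers of the 2 series although most were close. Of the expressed genes, 119 differed by more than 2 times, against 113 at ZT2 and between 191 and 285 at the other times. *Cish*, a target of STAT5 that responds to growth hormone pulses, was at 0.6 and 31.6 rpbp, with a range of 3.12 to 47 rpbp in the other 10 livers. *Cyp26a1*, which breaks down retinoic acid, was at 14.1 and 77.3 rpbp, and *Gadd45g* at 3.08 and 19.1 rpbp, each with 1 value below all 10 others. *Bcl6*, a repressor with higher levels in male liver, was at 33.1 and 7.24 rpbp, and *Tnfsf10* at 5.96 and 32.8 rpbp. *Spcs3*, a subunit of the signal peptidase, was at 84 and 0.12 rpbp, and the lowest of its other values was also 0.12. These genes were picked for their difference and have no test.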
